A study of Mus musculus with 16 samples.

Results

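The sort-specific change of day 3.5 CD144 positive cells asks which transcripts changed between day 2.5 and day 3.5 of embryonic stem (ES) cell differentiation in the sorted positive cells by a different factor than in the cells left negative by the same sorts. For each probe set it is the log2 change from day 2.5 VEGF-R2 positive cells (HB) to day 3.5 CD144 positive cells (AB), minus the log2 change from day 2.5 VEGF-R2 negative cells (NHB) to day 3.5 CD144 negative cells (NAB). A value above 0 means that the transcript rose more, or fell less, in the positive cells. The contrast uses 8 of the 16 arrays, those of the 4 populations named, with 2 arrays in each, and was tested on 45037 probe sets.

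All 4 populations came from murine CCE ES cells, an established line kept on irradiated embryonic fibroblasts with leukemia inhibitory factor (LIF). The cells formed embryoid bodies (EBs) once LIF was withdrawn, and the sources used here name no genetic change or treatment that sets one population apart from another. EB cells were fixed in ethanol and acetic acid, stained and sorted before RNA was isolated, and the duplicates came from separately conducted experiments. The surface marker changes with the day. The negative cells of day 2.5 lacked VEGF-R2, whereas those of day 3.5 lacked CD144 and could still carry VEGF-R2, so that day and marker cannot be told apart in either sort. The study describes CD144 positive cells of day 3.5 as a small subset of the VEGF-R2 positive cells.

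VEGF-R2, the receptor through which VEGF acts on early mesoderm and endothelium, marks the mesodermal precursors from which blood and endothelium arise, and the study calls its VEGF-R2 positive cells hemangioblasts. CD144 is VE-cadherin, the adhesion molecule of endothelial cell junctions, and the study calls its CD144 positive cells of day 3.5 angioblasts. In the embryo, pluripotent epiblast cells pass through the primitive streak to become mesoderm, the streak genes are then shut off, and part of the mesoderm switches on endothelial genes. Cells that have not entered the streak keep pluripotency genes.

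The deposited values are MAS5 signals, an intensity for each probe set that the submitters scaled on each array. Here log2 was taken of the signal plus an offset of 6.03, which is the 10th percentile over the whole table, and a change was called at an adjusted p under 0.05 in limma. The median signal was 85.8 and the lower quartile 23.4. Duplicate arrays correlated with a Spearman coefficient of 0.876 and 0.882 in the positive populations and 0.955 and 0.953 in the negative ones. The added hybridization controls were brighter on the positive arrays, with geometric means of 5171 to 9079 against 1830 to 2307. The highest signal on an array lay between 69556 and 115170 in the positive populations and between 30720 and 35904 in the negative ones. The ratio of 3′ to 5′ signal of the actin control, a sign of RNA quality, lay between 1.8 and 2.83 in the positive populations and between 1.36 and 2.09 in the negative ones. AB replicate 2 had the highest value of the 8 arrays in each of these measures. The part of array scaling, of labelling and of RNA quality in the differences between sorts was not tested. In sorted cells measured in bulk, fewer cells of a type and less RNA per cell cannot be told apart.

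The sorting markers checked the labels. Cdh5, which encodes CD144, had signals of 643 and 839 on the VEGF-R2 positive arrays, 2085 and 1863 on the CD144 positive arrays, 110.2 and 100.13 on the VEGF-R2 negative arrays and 38.3 and 20.5 on the CD144 negative arrays. All 4 positive values lay above all 4 negative ones, and the sort-specific change was 3.11 (standard error 0.49, adjusted p = 0.000776) on 1 of its 2 probe sets. Cdh5 rose by 1.42 (adjusted p = 0.0189) in the positive sort, and fell by 1.70 (adjusted p = 0.00516) in the negative sort. At day 2.5 the VEGF-R2 positive cells thus already stood above the VEGF-R2 negative ones. The VEGF-R2 gene, Kdr, had signals of 5475 and 6297 at day 2.5 and 4066 and 3691 at day 3.5 in positive cells, against 2088 and 2077 and 1001 and 739.9 in negative cells. It stood higher in the positive cells of both days, and its sort-specific change did not pass the test, at 0.67 (standard error 0.38, adjusted p = 0.403). Itga2b, which encodes the platelet integrin CD41, had a sort-specific change of 1.25 (standard error 0.34, adjusted p = 0.0379), a call that was lost without any 1 of 7 arrays.

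Of the 45037 probe sets, 2389 (5.3%) changed by a different factor in the 2 sorts, 1398 of them (3.1%) toward the positive cells and 991 (2.2%) away from them. The median over all probe sets was 0.02. Each sort taken alone had more calls: 7.71% of probe sets changed from day 2.5 to day 3.5 in the positive sort (4.87% rose and 2.84% fell) and 7.14% in the negative sort (3.9% rose and 3.24% fell). The sorts themselves differed in 20% of probe sets at day 3.5 (9.49% higher and 10.5% lower in positive cells) and in 24.9% at day 2.5 (11.1% higher and 13.8% lower). The calls were split into their parts, a description only, since the contrast is built from the same arrays. Of the 1398 higher probe sets, 567 rose in the positive sort with no call in the negative sort, 428 fell in the negative sort with no call in the positive sort, and 234 did both. A further 151 had no call in either sort alone, and 18 moved in the same direction in both. Of the 991 lower ones, 276 fell in the positive sort alone, 411 rose in the negative sort alone and 163 did both. In all, 1277 of the 2389 had a call in the negative sort. The counts per sort rest on a spread shared by both sorts. Duplicates differed by a median of 0.431 and 0.434 (log2) in the positive populations and 0.211 and 0.253 in the negative ones. With array weights by sort, 1481 probe sets were called in the positive sort and 6604 in the negative sort, against 3474 and 3215 as reported. The split by sort thus depends on how the spread is modelled. The calls can also be read at each day. Of the higher probe sets, 714 were lower in positive than in negative cells at day 2.5 and no longer differed by the test at day 3.5, while 312 differed only at day 3.5. For 171 higher and 190 lower probe sets the order of the sorts was reversed between the days. When each array was shifted to a common median, the median over all probe sets moved to -0.12 and the share of higher among called probe sets from 58.5% to 47.2%, so the balance between the directions depends on the scaling.

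**Figure D1:**
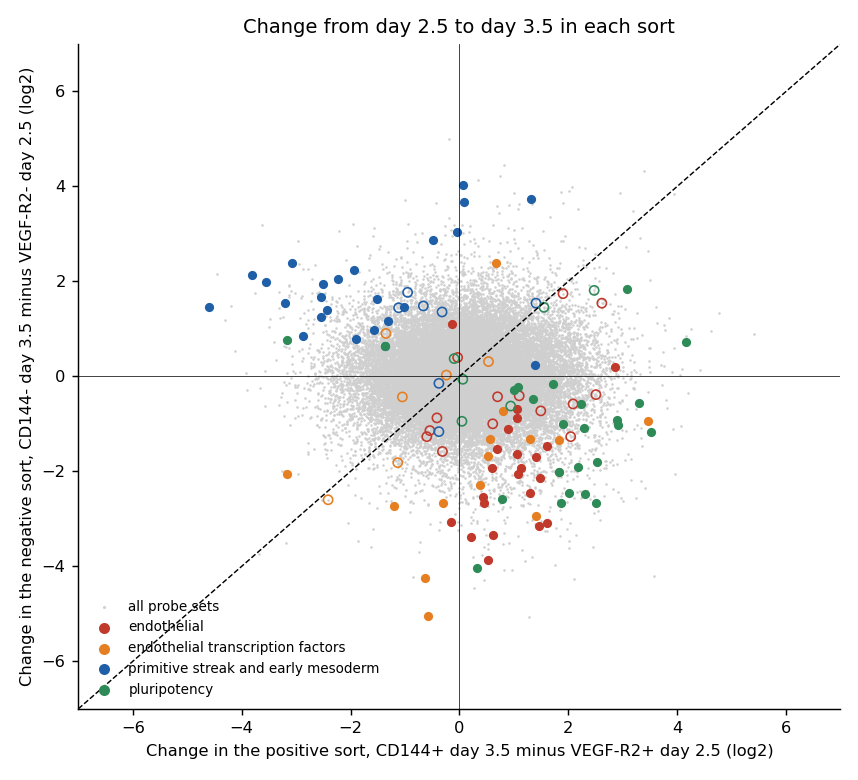
Change from day 2.5 to day 3.5 in the positive sort (horizontal, log2) and in the negative sort (vertical, log2), with all 45037 probe sets in grey and the members of 4 gene lists in colour, filled where the sort-specific change was called. The dashed line marks equal change in both sorts. Most endothelial and pluripotency genes lie below it and most primitive streak genes above it.

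The calls were read through 23 gene lists, each gene taken at its brightest probe set. Among all 18193 genes on that scale, 4.82% were called higher and 3.57% lower. In the positive sort 7.26% of genes rose and 3.95% fell, and in the negative sort 6.48% rose and 4.95% fell. In positive against negative cells, 13.8% were higher and 10.4% lower at day 3.5, and 16.1% were higher and 13.8% lower at day 2.5. Apart from the 3 sorting markers and the genes the study had picked, the shares were farthest above these values in 3 kinds of gene: endothelial genes and pluripotency genes among the higher, and primitive streak genes among the lower. Promoter windows of 5 of these genes, the 250 bases before the RefSeq start on GRCm38.p6, are printed 5′ to 3′ on the gene's strand to show the sequence beside the values given further on. The genes and the motifs were chosen after their values and matches had been seen. The windows lie at chr4:118489850-118490099 (minus strand) for Tie1, chr2:70474673-70474922 (plus strand) for Sp5, chr7:79793591-79793840 (minus strand) for Mesp1, chr6:52313248-52313497 (plus strand) for Evx1 and chr8:43307010-43307259 (minus strand) for Zfp42. Capitals mark, on either strand, the core GGAA of ETS factors in Tie1, CTTTGAT of TCF and LEF factors in Sp5 and Mesp1, and the octamer ATGCAAAT bound by POU factors in Evx1 and Zfp42.
Tie1: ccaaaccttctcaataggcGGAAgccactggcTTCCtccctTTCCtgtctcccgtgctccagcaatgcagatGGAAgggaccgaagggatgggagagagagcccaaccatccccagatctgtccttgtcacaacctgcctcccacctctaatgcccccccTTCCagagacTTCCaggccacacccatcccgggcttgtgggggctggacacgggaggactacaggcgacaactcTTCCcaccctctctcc
Sp5: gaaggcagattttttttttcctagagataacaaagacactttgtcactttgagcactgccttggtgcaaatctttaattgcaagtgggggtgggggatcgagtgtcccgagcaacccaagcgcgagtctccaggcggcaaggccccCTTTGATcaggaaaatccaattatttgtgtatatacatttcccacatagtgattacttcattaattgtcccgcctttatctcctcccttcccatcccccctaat
Mesp1: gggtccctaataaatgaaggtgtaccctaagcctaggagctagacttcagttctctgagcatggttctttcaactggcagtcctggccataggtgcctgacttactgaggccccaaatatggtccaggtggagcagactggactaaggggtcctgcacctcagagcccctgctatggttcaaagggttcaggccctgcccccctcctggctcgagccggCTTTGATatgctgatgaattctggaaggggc
Evx1: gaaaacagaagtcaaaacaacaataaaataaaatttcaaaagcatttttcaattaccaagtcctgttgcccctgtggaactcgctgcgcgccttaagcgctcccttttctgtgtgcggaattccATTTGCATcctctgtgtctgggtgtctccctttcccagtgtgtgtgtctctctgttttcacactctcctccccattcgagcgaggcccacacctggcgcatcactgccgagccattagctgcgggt
Zfp42: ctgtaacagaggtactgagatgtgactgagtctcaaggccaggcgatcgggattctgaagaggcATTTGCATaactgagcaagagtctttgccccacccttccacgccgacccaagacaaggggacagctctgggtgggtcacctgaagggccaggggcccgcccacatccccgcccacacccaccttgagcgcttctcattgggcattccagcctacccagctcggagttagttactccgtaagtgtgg

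Tie1, an endothelial receptor gene of the higher group, held 7 matches to GGAA, but 93.1% of the 14452 windows of genes on the array hold at least 1. Among genes called higher the share was 90.8%. The window of Sp5, a Wnt target, held CTTTGAT once, and so did that of the streak gene Mesp1. Both genes are in the lower group. This motif was found in 2.66% of all windows, in 3.36% of those of genes called lower and in 2.12% of those called higher. The octamer occurred in 1.38% of all windows, in 27 of 801 (3.37%) of genes called higher and in 8 of 596 (1.34%) of genes called lower. It was present in the streak gene Evx1, which is in the lower group, as well as in the pluripotency gene Zfp42, which is in the higher group, so that its presence did not fix the direction. The matches are strings of letters in these windows and were not tested as binding sites.

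Endothelial receptor, junction and surface genes moved together toward the positive cells. Of 36 such genes, 21 (58.3%) were called higher and 1 was called lower, with a median sort-specific change of 2.66. The 21 lay between 1.73 and 4.70. The list holds Tie1, Cd34, Emcn, Ednrb and Efna1, which the study chose on these arrays. It also holds Pecam1, Cldn5, Robo4, Icam2, Cdh5, Mmrn2 and Cav2, which the study chose on CD144 positive cells of a later day against the same VEGF-R2 positive arrays, so its count is not independent evidence of its direction. In the positive sort 15 of the 36 rose and 0 fell by limma (2 fell at an unadjusted p under 0.05), and in the negative sort 20 fell and 2 rose. At day 2.5, 21 of the 36 were higher in positive than in negative cells and 0 lower. At day 3.5, 34 were higher and again 0 lower, with 0 lower at either day at an unadjusted p under 0.05 in limma. Thus the genes were already unequal between sorts at day 2.5, and the inequality widened for 12 of the 21 and appeared at day 3.5 for the other 9.

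Cd34, a sialomucin of endothelial and blood progenitors, had the largest change of the list. Its signals were 454 and 648 on the VEGF-R2 positive arrays, 1695 and 1651 on the CD144 positive arrays, 371 and 406 on the VEGF-R2 negative arrays and 36.9 and 44.5 on the CD144 negative arrays. The groups did not overlap at either day, but at day 2.5 the sorts differed by 0.48 (adjusted p = 0.17) and at day 3.5 by 5.17 (adjusted p = 7.37e-10). The sort-specific change was 4.70 (standard error 0.34, adjusted p = 2.78e-07). Cd34 rose by 1.61 (adjusted p = 0.000492) in the positive sort and fell by 3.08 (adjusted p = 6.54e-07) in the negative sort. Tie1, an orphan receptor tyrosine kinase of endothelium, had signals of 399 and 596 at day 2.5 and 1327 and 1384 at day 3.5 in positive cells, against 73.6 and 67.3 and 3.55 and 1.75 in negative cells. Every positive value was above every negative one, and the CD144 negative arrays were under the lower quartile. The sort-specific change of Tie1 was 4.61 (standard error 0.48, adjusted p = 1.19e-05). Because a signal near 0 depends on the offset, this value ran from 2.98 with an offset of 32 to 5.81 with an offset of 1. Icam2, an adhesion molecule constitutively present on endothelium, had signals of 1533 and 2414 on the VEGF-R2 positive arrays, 2695 and 2842 on the CD144 positive arrays, 215 and 192 on the VEGF-R2 negative arrays and 15.2 and 3.69 on the CD144 negative arrays. It did not change by the test in the positive sort, at 0.52 (adjusted p = 0.665), and fell by 3.86 (adjusted p = 0.00033) in the negative sort. Its sort-specific change was 4.39 (standard error 0.81, adjusted p = 0.00283).

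The same picture held for other defining markers. Esam, an endothelial junction molecule, and Tek, the angiopoietin receptor, had sort-specific changes of 3.61 (standard error 0.40, adjusted p = 2.13e-05) and 3.12 (standard error 0.37, adjusted p = 5.25e-05). Neither changed by the test in the positive sort, and both fell in the negative sort, by 3.38 (adjusted p = 1.2e-06) and 2.67 (adjusted p = 6.32e-06). Pecam1, the endothelial adhesion molecule CD31, had signals of 308 and 279 at day 2.5 and 729 and 531 at day 3.5 in positive cells, against 269.9 and 273 and 55.3 and 66.9 in negative cells. Here the positive sort also rose, by 1.07 (adjusted p = 0.0228), and the negative sort fell by 2.05 (adjusted p = 0.000119). Emcn, an endothelial sialomucin, did not pass the test, with signals of 104 and 259.8 on the VEGF-R2 positive arrays, 986 and 528 on the CD144 positive arrays, 47.2 and 15.0 on the VEGF-R2 negative arrays and 13.9 and 19.04 on the CD144 negative arrays and a sort-specific change of 2.67 (standard error 0.86, adjusted p = 0.0921). The duplicates of Emcn in positive cells lay far apart. The single gene called lower was Flt1, the decoy receptor for VEGF, named after its value was seen. Flt1 stayed higher in the positive cells of both days, and it was lower in the contrast because it rose by 1.10 (adjusted p = 0.00261) in the negative sort and changed by -0.13 (adjusted p = 0.791) in the positive sort.

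**Figure D2:**
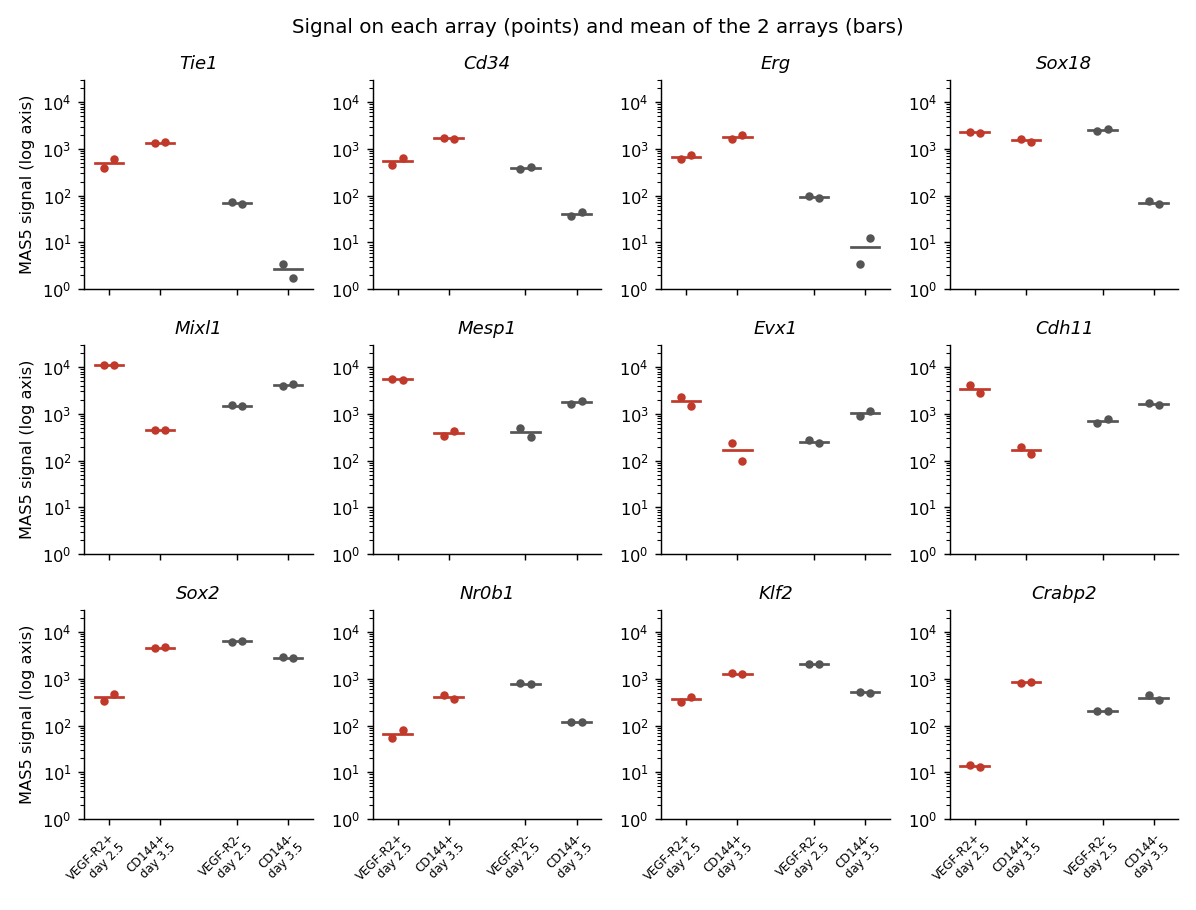
MAS5 signals on a log axis for 12 genes on the 8 arrays, positive sorts in red and negative sorts in grey, with a bar at the mean of each 2 arrays. In the top row the CD144 negative cells are the lowest group, in the middle row the VEGF-R2 positive cells are the highest and the CD144 positive cells the lowest or close to it, and in the bottom row the VEGF-R2 positive cells are the lowest.

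Transcription factors of the endothelial programme behaved likewise. Of 21, 13 (61.9%) were called higher and 2 (9.52%) lower, with a median of 1.88. Klf2, Tfec, Foxp1, Mef2c and Sox17 among them were likewise chosen by the study against the VEGF-R2 positive arrays. In the positive sort 7 rose and 5 fell, whereas in the negative sort 14 fell and 1 rose. Sox18, a vascular SOX factor, had signals of 2340.1 and 2182 on the VEGF-R2 positive arrays, 1652 and 1377 on the CD144 positive arrays, 2459.7 and 2612 on the VEGF-R2 negative arrays and 76.5 and 65.5 on the CD144 negative arrays. Only the CD144 negative cells stood apart, and the other 3 groups lay between 1377 and 2612. The sort-specific change of Sox18, 4.47 (standard error 0.54, adjusted p = 6.32e-05), thus rested on a fall of 5.05 (adjusted p = 5.16e-07) in the negative sort, with -0.58 (adjusted p = 0.422) in the positive sort. Erg, an ETS factor that maintains endothelial identity, had signals of 596 and 742 at day 2.5 and 1615 and 1932 at day 3.5 in positive cells, against 98.9 and 91.1 and 3.44 and 12.4 in negative cells. It rose in the positive sort and fell in the negative sort, and the difference was 4.33 (standard error 0.53, adjusted p = 6.02e-05) on 1 of 2 probe sets. The ETS factor Fli1 had a sort-specific change of 3.61 (standard error 0.44, adjusted p = 6.27e-05), again with a fall of 4.25 (adjusted p = 3.45e-07) in the negative sort and no call in the positive sort. Klf2, a factor induced by blood flow in endothelium and also active in ES cells, rose by 1.82 (adjusted p = 4.36e-06) in the positive sort and fell by 2.02 (adjusted p = 1.2e-06) in the negative sort. Its signals were 322 and 403 on the VEGF-R2 positive arrays, 1305 and 1277 on the CD144 positive arrays, 2099 and 2056 on the VEGF-R2 negative arrays and 516 and 501 on the CD144 negative arrays, so the CD144 positive cells stayed below the VEGF-R2 negative cells of day 2.5. Tfec, a basic helix-loop-helix factor related to Mitf, reached 236 and 215 on the CD144 positive arrays and at most 62.3 elsewhere. Its sort-specific change of 4.40 (standard error 0.98, adjusted p = 0.0115) was lost without NHB replicate 2 or NAB replicate 1.

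Etv2, Tal1 and Lmo2 of this list fell in both sorts. Etv2, the ETS factor that starts the endothelial and blood programme, had signals of 12421 and 14254 at day 2.5 and 1382 and 1587 at day 3.5 in positive cells, against 3913 and 4009 and 858 and 1048 in negative cells. It fell by 3.16 (adjusted p = 3.69e-08) in the positive and 2.06 (adjusted p = 2.21e-06) in the negative sort, and the fall was the larger in the positive sort, a sort-specific change of -1.11 (standard error 0.26, adjusted p = 0.0161). Tal1, the blood and endothelial factor SCL, also fell in both sorts, and more in the negative one, at 1.53 (standard error 0.26, adjusted p = 0.00144). Lmo2, a partner of Tal1, fell by 2.41 (adjusted p = 1.71e-06) and 2.60 (adjusted p = 5.16e-07), and its sort-specific change did not pass the test, at 0.19 (standard error 0.28, adjusted p = 0.817). The other factor called lower was Sox17, at -1.73 (standard error 0.40, adjusted p = 0.0143), which rose in the negative sort by 2.40 (adjusted p = 3.74e-05). Etv2, Tal1, Fli1, Lmo2 and Sox17 were named after their values were seen.

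Genes of arterial and venous identity and of Notch signalling were called in both directions. Of 20, 2 (10%) were called higher and 3 (15%) lower, with a median of 0.05. Among all genes the shares were 4.82% and 3.57%. Hes1, a Notch target, fell by 1.21 (adjusted p = 0.00894) in the positive sort and rose by 1.33 (adjusted p = 0.004) in the negative sort, a sort-specific change of -2.54 (standard error 0.37, adjusted p = 0.000395). Jag2, a Notch ligand, had 1.86 (standard error 0.34, adjusted p = 0.00288). Notch4, the endothelial Notch receptor, had signals of 681 and 1096 on the VEGF-R2 positive arrays, 1010.0 and 1045 on the CD144 positive arrays, 478 and 456 on the VEGF-R2 negative arrays and 167 and 145 on the CD144 negative arrays and a value of 1.80 (standard error 0.49, adjusted p = 0.039). That call on 1 of 3 probe sets was lost without any 1 of 7 arrays.

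**Figure D3:**
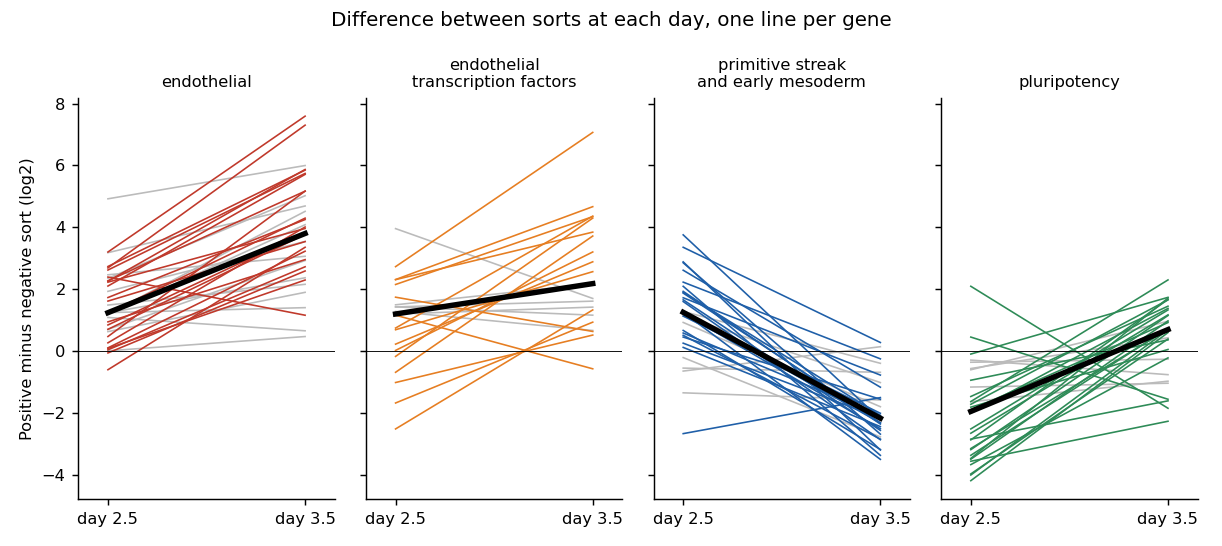
Difference between positive and negative sort (log2, vertical) at day 2.5 and at day 3.5 for each gene of 4 lists, coloured where the sort-specific change was called and grey where not, with the median of each list in black. The median of the endothelial genes moved from 1.25 to 3.80, that of the streak genes from 1.26 to -2.16 and that of the pluripotency genes from -1.94 to 0.70.

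Of 24 genes of blood progenitors and myeloid cells, 8 (33.3%) were called higher and 0 lower by limma (2 lower at an unadjusted p under 0.05), with a median of 0.76. Of the 24, Ikzf1, Ikzf2, Runx1, Cd52 and Mpo were picked by the study on a comparison that also used the VEGF-R2 positive arrays. Mpo was called higher, and Ikzf1, Ikzf2, Runx1 and Cd52 were not called. Plek, a protein kinase C substrate of platelets and leukocytes, had signals of 75.7 and 68.3 on the VEGF-R2 positive arrays, 533 and 826 on the CD144 positive arrays, 34.4 and 31.98 on the VEGF-R2 negative arrays and 2.86 and 11.8 on the CD144 negative arrays. The CD144 positive cells were above all other groups, and the sort-specific change was 4.74 (standard error 0.69, adjusted p = 0.000356), on 1 of 3 probe sets. Laptm5, a lysosomal protein of blood cells, had 3.91 (standard error 0.46, adjusted p = 4.15e-05), mostly through a fall of 2.66 (adjusted p = 5.34e-05) in the negative sort. Itgb3, the integrin that pairs with CD41, had 3.52 (standard error 0.91, adjusted p = 0.0307), lost without any 1 of 7 arrays. Of 20 primitive erythroid genes, 1 (5%) was called higher and 2 (10%) lower, against 4.82% and 3.57% among all genes. Nfe2, a factor of erythroid cells and megakaryocytes, was higher at 2.52 (standard error 0.54, adjusted p = 0.00934) and lost the call without AB replicate 2 or NHB replicate 1. Ermap, an erythroblast membrane protein, had signals of 92.5 and 55.2 at day 2.5 and 2.93 and 6.70 at day 3.5 in positive cells, against 7.23 and 11.6 and 48.0 and 21.3 in negative cells and a value of -4.19 (standard error 0.87, adjusted p = 0.00749), and lost it without NAB replicate 1. Car2, a carbonic anhydrase, fell by 1.35 (adjusted p = 1.8e-05) in the positive sort and had 0.17 (adjusted p = 0.68) in the negative sort, a difference of -1.52 (standard error 0.20, adjusted p = 0.000149).

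Primitive streak and early mesoderm genes formed the opposite group. Of 31, 23 (74.2%) were called lower and 1 higher, with a median of -3.14, and the 23 lay between -6.07 and -2.01. Mixl1, Lhx1, Evx1 and Gsc are on the list and were chosen by the study on these arrays. In the positive sort 17 of the 31 fell and 2 rose, and in the negative sort 21 rose and 0 fell. At day 2.5, 17 of the 31 were higher in positive than in negative cells and 1 was lower. At day 3.5, 0 were higher and 23 were lower, and at an unadjusted p under 0.05 in limma the counts of 0 stayed at 0. For 13 of the 23 called genes the order of the sorts was reversed by test at both days.

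Mixl1, a homeobox gene of the streak, had signals of 11079 and 11204 on the VEGF-R2 positive arrays, 448 and 456 on the CD144 positive arrays, 1526 and 1477 on the VEGF-R2 negative arrays and 4020.4 and 4309.6 on the CD144 negative arrays. It was the brightest in day 2.5 VEGF-R2 positive cells and the dimmest in day 3.5 CD144 positive cells, with no overlap between any of the groups. It fell by 4.61 (adjusted p = 6.92e-09) in the positive sort and rose by 1.47 (adjusted p = 0.000294) in the negative sort. The sort-specific change was -6.07 (standard error 0.30, adjusted p = 7.07e-09). Mesp1, a factor of the earliest cardiovascular mesoderm, had signals of 5677 and 5168 at day 2.5 and 343 and 419 at day 3.5 in positive cells, against 485 and 321 and 1658 and 1857 in negative cells. Its order was reversed in the same way, with a sort-specific change of -5.95 (standard error 0.37, adjusted p = 4.96e-08). Evx1, a homeobox gene of the posterior streak, had signals of 2324 and 1495 on the VEGF-R2 positive arrays, 233 and 100.03 on the CD144 positive arrays, 270.2 and 235 on the VEGF-R2 negative arrays and 901 and 1134 on the CD144 negative arrays, and its change was -5.53 (standard error 0.65, adjusted p = 4.28e-05). Lhx1, a LIM homeobox gene, fell by 3.07 (adjusted p = 0.00036) and rose by 2.39 (adjusted p = 0.00237) in the 2 sorts, and Gsc, the organizer gene goosecoid, had -4.19 (standard error 0.82, adjusted p = 0.00478). Eomes, a T-box factor, had signals of 5611 and 5157 at day 2.5 and 939 and 905 at day 3.5 in positive cells, against 1837 and 1566 and 5929 and 4995 in negative cells, so that its level in day 3.5 CD144 negative cells overlapped that in day 2.5 VEGF-R2 positive cells. The gene called higher was Nodal, the ligand of streak formation, at 1.16 (standard error 0.30, adjusted p = 0.0308). It rose in the positive sort by 1.40 (adjusted p = 0.000591) and remained lower there than in the negative cells at day 3.5. Nodal was named after its value was seen, and its call was lost under quantile normalization.

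Signals that pattern the streak followed. Of 28 Wnt and FGF genes, 10 (35.7%) were called lower and 3 higher, with a median of -0.72. Wnt5a, a noncanonical Wnt ligand, had signals of 494 and 396 on the VEGF-R2 positive arrays, 45.1 and 44.5 on the CD144 positive arrays, 164 and 161 on the VEGF-R2 negative arrays and 676 and 585 on the CD144 negative arrays. It was highest in CD144 negative and lowest in CD144 positive cells, and its sort-specific change was -5.05 (standard error 0.67, adjusted p = 0.000149) on 2 of 4 probe sets. Sp5, the Wnt target whose window is printed earlier, had signals of 2471 and 2113 at day 2.5 and 301 and 360.3 at day 3.5 in positive cells, against 415 and 456 and 2062 and 2167 in negative cells. It fell by 2.77 (adjusted p = 1.52e-06) in the positive sort and rose by 2.27 (adjusted p = 6.36e-06) in the negative sort, a difference of -5.04 (standard error 0.32, adjusted p = 5e-08). Wnt2 had -3.94 (standard error 1.004, adjusted p = 0.0282), lost without any 1 of 6 arrays. Of 21 genes of BMP signalling and its Id targets, 7 (33.3%) were called lower and 2 higher. Bmp2, a ligand, had signals of 2709.5 and 2775 on the VEGF-R2 positive arrays, 784 and 719.5 on the CD144 positive arrays, 376 and 338 on the VEGF-R2 negative arrays and 1268 and 1248 on the CD144 negative arrays and a change of -3.66 (standard error 0.23, adjusted p = 5.72e-08). The homeobox targets Msx2 and Msx1 had -3.62 (standard error 0.33, adjusted p = 2.88e-06) and -3.42 (standard error 0.26, adjusted p = 4.23e-07). All 3 fell in the positive sort and rose in the negative sort.

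Some cardiac and mesenchymal genes that VEGF-R2 positive cells carried at day 2.5 were part of the lower group. Of 21 cardiac genes, 7 (33.3%) were called lower and 2 higher. Myl7, the atrial myosin light chain, had the lowest sort-specific change of all named genes. Its signals were 10854 and 10815 at day 2.5 and 903 and 834 at day 3.5 in positive cells, against 144 and 111 and 1198 and 1195 in negative cells. At day 3.5 both CD144 positive values were below both CD144 negative ones, a difference of -0.46 (adjusted p = 0.0916), and the sort-specific change was -6.81 (standard error 0.26, adjusted p = 2.87e-10). Isl1, a factor of the second heart field, had -3.64 (standard error 0.65, adjusted p = 0.00229), and Hand2, a factor of heart development, had -3.55 (standard error 0.52, adjusted p = 0.000404) on 1 of 3 probe sets. Of 20 smooth muscle and mesenchyme genes, 3 (15%) were called lower and 2 (10%) higher. Cdh11, the mesenchymal cadherin-11, had signals of 4129 and 2719.7 on the VEGF-R2 positive arrays, 195 and 136 on the CD144 positive arrays, 639 and 779 on the VEGF-R2 negative arrays and 1682 and 1558 on the CD144 negative arrays and a value of -5.50 (standard error 0.33, adjusted p = 4.43e-08). Cdh2, N-cadherin, had signals of 3669 and 3119 at day 2.5 and 932 and 815 at day 3.5 in positive cells, against 2021 and 1819.9 and 6269.8 and 5505 in negative cells, the highest in CD144 negative and the lowest in CD144 positive cells, and a value of -3.56 (standard error 0.36, adjusted p = 9.86e-06). Pmp22, a peripheral myelin protein, had -3.19 (standard error 0.21, adjusted p = 5.8e-08). Of 25 Hox genes 2 were called lower, Hoxb1 at -3.48 (standard error 0.46, adjusted p = 0.000149) and Hoxb2 at -1.93 (standard error 0.32, adjusted p = 0.00106), and 0 higher by limma, also at an unadjusted p under 0.05. The 2 lower Hox genes made up 8%, against 3.57% among all genes. Of the 25 Hox genes, 9 lay above the median signal.

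Pluripotency genes were the third group. Of 30, 22 (73.3%) were called higher and 2 lower, with a median of 3.14. The positive sort rose in 23 and fell in 2, and the negative sort fell in 12 and rose in 3. At day 2.5, 23 of the 30 were lower in VEGF-R2 positive than in VEGF-R2 negative cells and 1 was higher. At day 3.5, 11 were higher in CD144 positive than in CD144 negative cells and 6 lower. Sox2, a core factor of pluripotency, had signals of 335 and 461 on the VEGF-R2 positive arrays, 4491 and 4659.5 on the CD144 positive arrays, 6226 and 6487 on the VEGF-R2 negative arrays and 2921 and 2736 on the CD144 negative arrays. It was lowest in VEGF-R2 positive cells, and the CD144 positive cells lay between the 2 negative populations. It rose by 3.52 (adjusted p = 2.52e-06) in the positive sort and fell by 1.17 (adjusted p = 0.0238) in the negative sort, and the difference was 4.69 (standard error 0.43, adjusted p = 2.76e-06). Nr0b1, the orphan nuclear receptor Dax1, had signals of 54.1 and 81.0 at day 2.5 and 440.3 and 373 at day 3.5 in positive cells, against 819 and 760.1 and 119 and 118 in negative cells and a change of 5.18 (standard error 0.79, adjusted p = 0.000562). Pou3f1, a POU factor of the epiblast, had signals of 276 and 190.0 on the VEGF-R2 positive arrays, 1068 and 1257 on the CD144 positive arrays, 4246 and 4257 on the VEGF-R2 negative arrays and 767 and 753 on the CD144 negative arrays and a change of 4.78 (standard error 0.36, adjusted p = 3.19e-07). For both, the order of positive and negative cells at day 3.5 was the opposite of that at day 2.5, but for Pou3f1 the difference at day 3.5 did not pass the test, at 0.60 (adjusted p = 0.106). Zfp42, the marker Rex1, had 4.33 (standard error 0.33, adjusted p = 3.87e-07).

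The defining factors were not all of this kind. Pou5f1, which encodes Oct4, had signals of 6299 and 5498 at day 2.5 and 10193 and 12561 at day 3.5 in positive cells, against 8912 and 8896 and 6675 and 4996 in negative cells. It was bright in all 4 populations, and its sort-specific change did not pass the test, at 1.57 (standard error 0.62, adjusted p = 0.183). Nanog had signals of 375 and 374 on the VEGF-R2 positive arrays, 3103 and 3279 on the CD144 positive arrays, 2671 and 2755 on the VEGF-R2 negative arrays and 9794 and 9577 on the CD144 negative arrays. It rose in both sorts and more in the positive one, with 1.24 (standard error 0.34, adjusted p = 0.0429), and it stayed highest in CD144 negative cells. The gene farthest the other way was Tbx3, a T-box factor of ES cells that mesoderm also uses, named after its value was seen, at -3.94 (standard error 0.37, adjusted p = 3.73e-06).

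Of the genes with the largest sort-specific changes, Mef2c is on the lists of endothelial factors and of cardiac genes, Fgf4 and Utf1 are on the pluripotency list, Mixl1, Mesp1, Evx1 and Gsc are on the streak list and Myl7 is on the cardiac list. The others are on none of the lists. In this ranking a gene stands by its called probe set with the largest change, which need not be its brightest. With the larger part in the positive sort, the 5 largest higher changes were those of Platr10, Clec1b, Mef2c, Morc1 and Fgf4. Platr10, a long noncoding RNA named for its association with pluripotency, had signals of 19.9 and 37.5 on the VEGF-R2 positive arrays, 494 and 534 on the CD144 positive arrays, 965 and 915 on the VEGF-R2 negative arrays and 235 and 205 on the CD144 negative arrays and a change of 6.02 (standard error 0.52, adjusted p = 1.75e-06). Clec1b, which encodes the platelet receptor CLEC-2, had signals of 306 and 802 at day 2.5 and 4085 and 5484 at day 3.5 in positive cells, against 94.2 and 77.4 and 20.2 and 2.98 in negative cells and a change of 5.81 (standard error 0.81, adjusted p = 0.00024). Clec1b was brighter in CD144 positive cells than in any other group. Mef2c, a MADS-box factor of heart and vessels, had 5.77 (standard error 0.73, adjusted p = 9.6e-05), and 3 of its 5 probe sets were called. The brightest of them, used in the lists, had 3.18. Morc1, a chromatin protein of germ cells, and Fgf4, a growth factor of ES cells, had 5.63 (standard error 0.31, adjusted p = 2.01e-08) and 5.55 (standard error 1.04, adjusted p = 0.00333). The VEGF-R2 positive duplicates of Fgf4 lay apart, at 4.83 and 78.6. Of its 4 probe sets 2 were called, and the brightest had 4.465.

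With the larger part in the negative sort, the 5 largest were Ctla2a, Mgp, Dnmt3l, Utf1 and Rpl39l. Ctla2a, a cysteine protease inhibitor, had signals of 2460.3 and 4741 on the VEGF-R2 positive arrays, 13964 and 15364 on the CD144 positive arrays, 495 and 564 on the VEGF-R2 negative arrays and 22.9 and 20.3 on the CD144 negative arrays. It rose by 2.10 (adjusted p = 0.000125) in the positive and fell by 4.27 (adjusted p = 6.28e-08) in the negative sort, and the difference of 6.37 (standard error 0.38, adjusted p = 4.43e-08) was the largest of all named genes. Mgp, an inhibitor of matrix calcification, was bright in VEGF-R2 negative cells alone, with 818 and 746, and the CD144 positive duplicates differed, with 11.3 and 95.8. Its change was 6.34 (standard error 1.22, adjusted p = 0.00402). Dnmt3l, the cofactor of the de novo DNA methyltransferases, had signals of 139.6 and 178 at day 2.5 and 536 and 563 at day 3.5 in positive cells, against 2595 and 2643 and 139 and 185 in negative cells and a change of 5.74 (standard error 0.34, adjusted p = 4.43e-08). Utf1, a chromatin protein of ES cells, had 5.48 (standard error 0.65, adjusted p = 4.97e-05). Of its 3 probe sets 2 were called, and the brightest had 4.535. Rpl39l, a paralog of a ribosomal protein gene, had 5.39 (standard error 0.27, adjusted p = 7.09e-09).

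On the lower side, Myl7, Mixl1, Mesp1 and Evx1 were joined by Tmem114, at -5.68 (standard error 1.03, adjusted p = 0.00248), where the positive sort moved more. Where the negative sort moved more, the largest were Cd36, Gad1, Usp18, Asb4 and Gsc. Cd36, a fatty acid scavenger receptor, was near the bottom of the scale in 3 populations and reached 456 and 435 in CD144 negative cells, a change of -5.19 (standard error 1.02, adjusted p = 0.00474) on 1 of 3 probe sets. Gad1, which makes the transmitter GABA, had signals of 276 and 149 on the VEGF-R2 positive arrays, 56.9 and 39.8 on the CD144 positive arrays, 34.1 and 31.0 on the VEGF-R2 negative arrays and 411 and 296 on the CD144 negative arrays and a change of -5.17 (standard error 0.58, adjusted p = 2.72e-05). Usp18, the protease that removes ISG15, had signals of 837 and 775 at day 2.5 and 189.6 and 183 at day 3.5 in positive cells, against 114 and 139 and 721 and 722 in negative cells and -4.54 (standard error 0.29, adjusted p = 6.03e-08). Asb4, a protein with ankyrin repeats and a SOCS box, had -4.19 (standard error 0.48, adjusted p = 3.14e-05).

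The other germ layers gave mixed counts. Of 26 endoderm genes, 5 (19.2%) were called higher and 6 (23.1%) lower, against 4.82% and 3.57% among all genes. Of the 6 lower, Gata4 and Gata6 are also counted in the cardiac list, Foxa2 in the streak list and Sox17 among the endothelial factors. Cubn, the cubilin of visceral endoderm, had 3.93 (standard error 0.93, adjusted p = 0.0184), lost without any 1 of 6 arrays, and Gata4 and Gata6, factors of endoderm and of cardiac mesoderm, had -3.44 (standard error 0.37, adjusted p = 1.8e-05) and -3.12 (standard error 0.26, adjusted p = 1.17e-06). Foxa2, a marker of definitive endoderm and of the anterior streak, rose by 1.32 (adjusted p = 0.00167) in the positive sort and by 3.74 (adjusted p = 4.86e-08) in the negative sort, a difference of -2.42 (standard error 0.32, adjusted p = 0.000149). Of 25 neuroectoderm genes, 4 (16%) were called higher and 3 (12%) lower. Among the higher, the probe set of Sox1 is the one that the study lists as Sox11 and chose on these arrays. Crabp2, a carrier of retinoic acid, had signals of 14.6 and 12.7 on the VEGF-R2 positive arrays, 813 and 852 on the CD144 positive arrays, 207 and 208 on the VEGF-R2 negative arrays and 440.4 and 345 on the CD144 negative arrays. It was near the bottom in VEGF-R2 positive cells, highest in CD144 positive cells and had a change of 4.52 (standard error 0.61, adjusted p = 0.000172). Tubb3, the neuronal tubulin, had 3.17 (standard error 0.51, adjusted p = 0.000887) through a fall in the negative sort, and Sox1, a neural SOX factor, had 4.18 (standard error 1.12, adjusted p = 0.0375), lost without any 1 of 6 arrays.

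Genes of metabolism, the cell cycle and stress were called in both directions. Of 27 genes of hypoxia and glycolysis, 15 rose in the positive and 18 in the negative sort, and 3 (11.1%) were called higher and 4 (14.8%) lower in the contrast. Pdk1, a kinase that holds pyruvate back from oxidation, rose in the positive and fell in the negative sort, at 2.34 (standard error 0.19, adjusted p = 9.11e-07). Ndrg1, a hypoxia target, rose by 1.67 (adjusted p = 0.000183) and 3.36 (adjusted p = 1.28e-07), a difference of -1.69 (standard error 0.32, adjusted p = 0.00335), and Egln3, the oxygen-sensing prolyl hydroxylase PHD3, had -1.60 (standard error 0.18, adjusted p = 2.95e-05). Of 31 genes of replication and mitosis, 2 (6.45%) were called higher and 2 (6.45%) lower, against 4.82% and 3.57% among all genes. The cyclin Ccnd2 had -1.996 (standard error 0.21, adjusted p = 1.29e-05), Ccne1 had 1.61 (standard error 0.25, adjusted p = 0.00063) and the ribonucleotide reductase subunit Rrm1 had -0.75 (standard error 0.18, adjusted p = 0.0168), lost without any 1 of 6 arrays. Of 24 immediate early and stress genes, 3 (12.5%) were called higher and 2 (8.33%) lower, led by the DNA damage gene Gadd45a at 3.05 (standard error 0.41, adjusted p = 0.000171). Egr2 had -2.55 (standard error 0.71, adjusted p = 0.0436), which likewise was not called without any 1 of 6 arrays, and Myc had -1.89 (standard error 0.36, adjusted p = 0.0035). Of 18 imprinted and IGF genes, 4 (22.2%) were called higher and 3 (16.7%) lower. Igf1, insulin-like growth factor 1, had signals of 237 and 428 at day 2.5 and 1243 and 1458 at day 3.5 in positive cells, against 121 and 114 and 29.7 and 55.0 in negative cells, the highest in CD144 positive cells, and a change of 3.46 (standard error 0.48, adjusted p = 0.000212). Its binding protein Igfbp5 had 3.67 (standard error 0.66, adjusted p = 0.00253) on 1 of 2 probe sets. The other Igfbp5 probe set went the other way, at -1.83 (adjusted p = 0.0893). The imprinted zinc finger gene Peg3 had -2.38 (standard error 0.33, adjusted p = 0.000256).

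Of 12 basement membrane genes 4 (33.3%) were called higher and 0 lower by limma (6 and 0 at an unadjusted p under 0.05), and the count of higher genes ran from 0 to 7 over the alternatives. Nid1 (nidogen), Lamc1 and Lama5 (laminin chains) had 2.53 (standard error 0.54, adjusted p = 0.00857), 1.39 (standard error 0.26, adjusted p = 0.00334) and 0.96 (standard error 0.26, adjusted p = 0.036). The call of Lama5 was lost without any 1 of 7 arrays, and that of Nid1 without HB replicate 1 or AB replicate 2. Of 19 genes of feeder fibroblasts and interstitial matrix, 4 (21.1%) were called higher and 1 (5.26%) lower. The proteoglycan gene Bgn had 2.35 (standard error 0.42, adjusted p = 0.0022), the collagen gene Col5a2 had 2.15 (standard error 0.47, adjusted p = 0.011) and Ccn2, connective tissue growth factor, had 1.70 (standard error 0.37, adjusted p = 0.0108). Col5a2 lost its call without NHB replicate 2 and under quantile normalization, and Ccn2 without HB replicate 1 or NAB replicate 2 and with a common median, a floor or a robust prior.

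**Figure D4:**
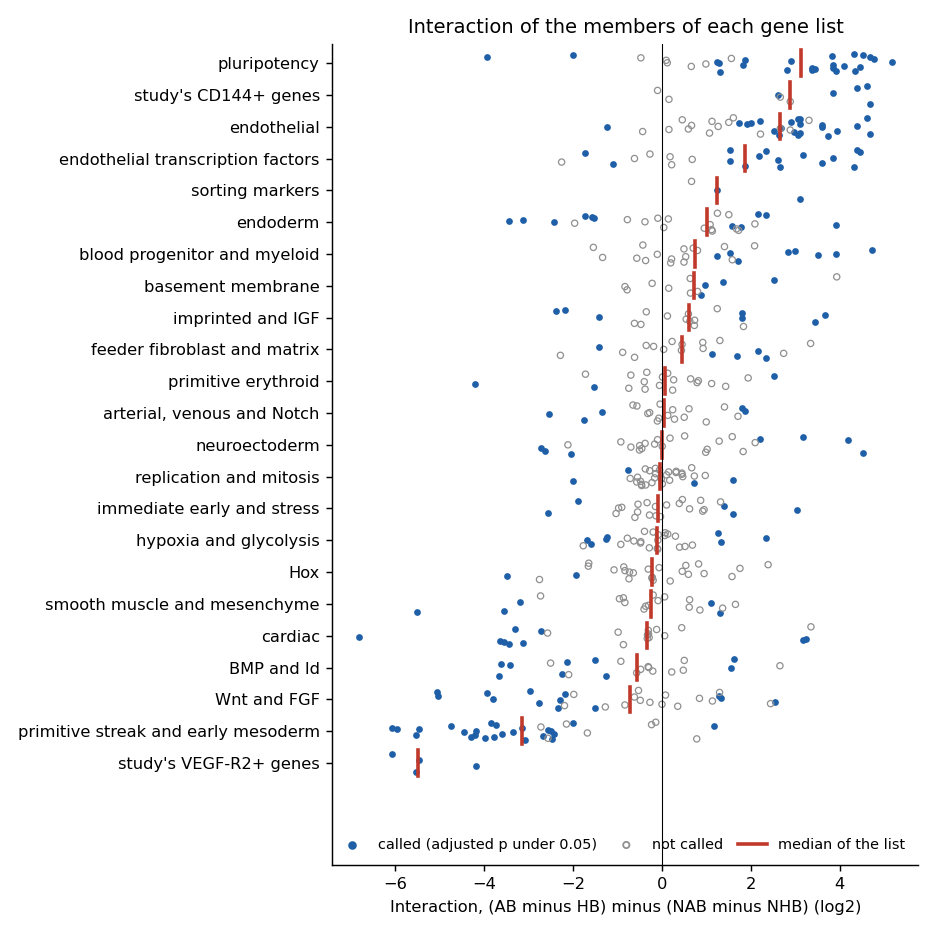
Sort-specific change (log2, horizontal) of every member of the 23 gene lists, in blue where called and open where not, with the median of each list as a red bar. The medians run from -5.50 for the genes the study named in VEGF-R2 positive cells to 3.14 for the pluripotency genes.

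The genes that the study singled out on these arrays were looked up as well, and since they were chosen there, their direction is no independent evidence. Of 9 genes named for CD144 positive cells, 5 were called higher, namely Cd34, Tie1, Tfec, Klf2 and Foxp1. The fork-head factor Foxp1 had 2.61 (standard error 0.24, adjusted p = 3.11e-06), on 6 of its 8 probe sets called. Of the other 4, the endothelin receptor Ednrb had 2.89 (standard error 0.96, adjusted p = 0.102). Its VEGF-R2 positive duplicates lay apart, at 11.8 and 125. Leaving out 1 array moved the change between 1.45 and 4.33, with the highest value without HB replicate 2. Ednrb was called on 0 of 3 probe sets, and the other probe sets had -0.88 (adjusted p = 0.706) and -2.21 (adjusted p = 0.184). Emcn is given earlier, and the ephrin Efna1 had signals of 203 and 408 on the VEGF-R2 positive arrays, 1168 and 1027 on the CD144 positive arrays, 140.3 and 99.1 on the VEGF-R2 negative arrays and 429 and 389.8 on the CD144 negative arrays. Efna1 rose in both sorts, by 1.90 (adjusted p = 0.00902) and 1.74 (adjusted p = 0.0148), and its sort-specific change was 0.16 (standard error 0.59, adjusted p = 0.937). Sox11 had -0.10 (standard error 0.26, adjusted p = 0.912) and was called on 0 of 6 probe sets by its symbol. The probe set with the study's own GenBank entry for Sox11 carries the symbol Sox1 in the platform annotation. That probe set was called higher, at 4.18 (standard error 1.12, adjusted p = 0.0375), and is given earlier under Sox1. It is not among the 5 counted here. Of 5 genes named for VEGF-R2 positive cells, Mixl1, Lhx1, Evx1 and Gsc were called lower, and the fifth was not analysed here.

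Markers of the cell types that a sort could hold were summed on each array. The 9 endothelial markers summed to 7353 to 10179 in VEGF-R2 positive cells, 14172 to 15488 in CD144 positive cells, 2153 to 2235 in VEGF-R2 negative cells and 299 to 307 in CD144 negative cells. Of the 9, 8 were called higher, and Tie1, Emcn and Icam2 had means under the lower quartile in CD144 negative cells, where 0 of 9 were so in the other 3 populations. The 5 streak markers analysed summed to 26955 to 29826, 2341 to 2574, 4662 to 5145 and 17671 to 18152 in the same order, and all 5 were called lower. The 6 markers of undifferentiated cells and epiblast summed to 10915 to 12206 in VEGF-R2 positive cells, 39221 to 45645 in CD144 positive cells, 37349 to 38568 in VEGF-R2 negative cells and 31597 to 32457 in CD144 negative cells. The sum on either CD144 positive array was above that on every negative array, through Pou5f1 and Dppa5a, a gene of ES cells with mean signals of 19584, 15377 and 10268 in CD144 positive, VEGF-R2 negative and CD144 negative cells. The other 4 were each lower in CD144 positive cells than in one of the negative populations, Sox2 and Zfp42 than in the VEGF-R2 negative and Nanog and Fgf5 than in the CD144 negative cells. Whether that level came from the CD144 positive cells themselves or from other cells in the sort, and its part in the higher calls of the pluripotency genes, was not tested.

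Blood markers summed to 2971 to 3566 in CD144 positive cells and to between 406 and 1387 in the other populations, with 2 of 8 called higher. Ptprc, the leukocyte antigen CD45, had a mean under the lower quartile in both negative populations. The 7 feeder fibroblast markers summed to between 699 and 1337 on all 8 arrays, with 1 called higher. Col1a1, Postn and Lum were under the lower quartile in CD144 positive cells. Endoderm markers were highest in CD144 negative cells, at 1734 to 1894, where Foxa2 made up nearly all of the sum. The 3 cardiac markers summed to 10978 to 11053 in VEGF-R2 positive cells, nearly all from Myl7. The 3 neuroectoderm markers summed to between 470 and 887 on all arrays. The part of these cell types in the calls was not tested.

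**Figure D5:**
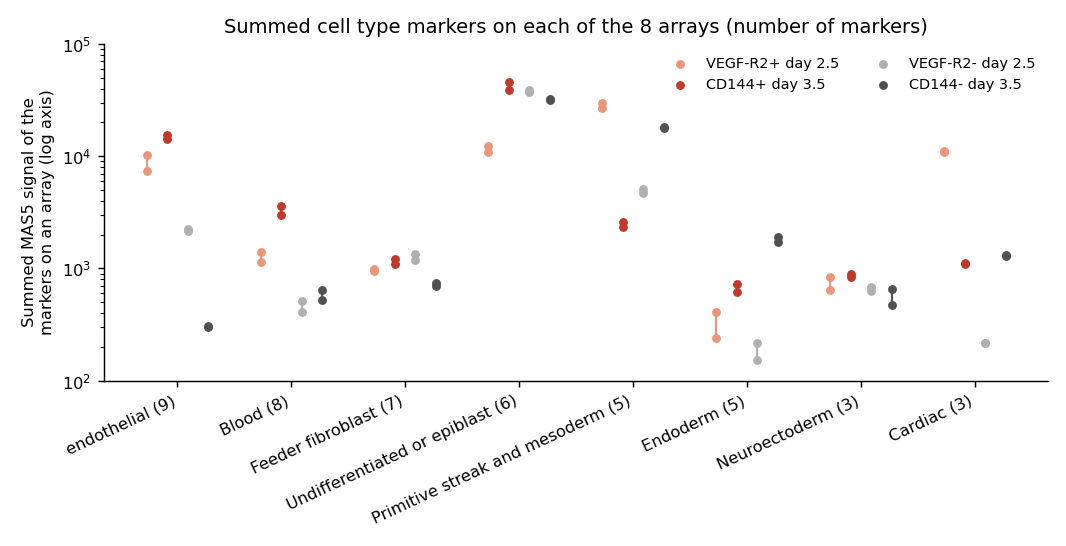
Summed MAS5 signal (log axis) of the markers of 8 cell types on each of the 8 arrays, 2 points per population. Endothelial markers are highest in CD144 positive and lowest in CD144 negative cells, and streak markers are highest in VEGF-R2 positive and lowest in CD144 positive cells.

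Of the 85 genes named by the rule, 80 were called, and 59 of the 80 were called under every alternative in which they were tested. The other 21 lost the call in at least 1 alternative, 15 of them without at least 1 array, and none reversed. These counts leave out the filter modelled on the study's, under which single genes were not scored. The calls also depend on the probe set. Of the 80 genes, 42 had several probe sets, all were called the same way for 9 of these, and some were not called for 33. No gene had probe sets called in opposite directions. In 16 of the 80 genes both arrays of a population lay under the lower quartile, most often in CD144 negative cells (11 genes), and there the size of the fitted change depends on the offset.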

How the data were processed

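Gene expression was measured on Affymetrix Mouse Genome 430 2.0 arrays, 2 for each of 8 sorted populations, grouped by the sample titles. Each deposited value is a linear intensity from MAS5, the tool in the submitters' processing notes, and the values of each array have a trimmed mean (2nd to 98th percentile) of 500. No software version is given in the sources used here. The study also ran dChip for its gene lists, and no dChip value entered the tests.

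The array has 45101 probe sets, of which the 64 labelled as controls were dropped. Symbols came from the platform annotation, updated through RefSeq for 11 list members; 34945 probe sets carry 1 symbol, 932 several and 9160 none. After the offset and log2, all 16 arrays were fitted by group in limma 3.58.1 under R 4.3.3, with a trend. Adjusted p-values are Benjamini-Hochberg values over 45037 probe sets. Simulated data with known changes served to test the scripts. With 2 arrays per group, the number of arrays limits the precision, and no detection calls were used. Each listed gene was represented by the probe set with the highest mean over 16 arrays.

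Named genes were the 5 largest called changes per direction and leading sort among probe sets with 1 symbol, a mean above the median and the called sign in each combination of replicates, the 3 largest called members per list, and all sorting markers and study genes. The markers of the summed cell types came from a fixed list. The rule, the members and the lists were chosen with earlier results of these data known. Same-numbered duplicates did not deviate together (correlations -0.00349 to 0.0128 over 6 pairs of groups), so numbers were not used as pairs. Alternatives were 2 normalizations, other offsets, a floor, leaving out dim probe sets, restriction to 8 arrays, a replicate block, array weights, a robust prior, other call rules, another probe set per gene and leaving out each array. Promoter windows came from RefSeq, 1 per gene. Plots used matplotlib 3.10.9 (Python 3.11.15).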

Additional observations from a re-analysis of the deposited data

Results flagged for a closer look

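The contrast is itself a test of whether the change from day 2.5 to day 3.5 differed between the positive and the negative sort, so every call stands here for the same reason: the change was not the same in the 2 sorts. Over all probe sets, 1398 were called higher and 991 lower. The values in parentheses are log2 sort-specific changes. Among the largest higher changes were Ctla2a (6.37), Mgp (6.34), Platr10 (6.02), Clec1b (5.81), Mef2c (5.77), Dnmt3l (5.74), Morc1 (5.63), Fgf4 (5.55), Utf1 (5.48) and Rpl39l (5.39), and among the largest lower ones Myl7 (-6.81), Mixl1 (-6.07), Mesp1 (-5.95), Tmem114 (-5.68), Evx1 (-5.53), Cd36 (-5.19), Gad1 (-5.17), Usp18 (-4.54), Asb4 (-4.19) and Gsc (-4.19). Endothelial genes, sorting markers and genes the study picked in CD144 positive cells that were called were Cd34 (4.70), Tie1 (4.61), Sox18 (4.47), Tfec (4.40), Icam2 (4.39), Erg (4.33), Klf2 (3.84), Cdh5 (3.11), Foxp1 (2.61) and Itga2b (1.25). Genes of the arterial, venous and Notch list were Hes1 (-2.54), Jag2 (1.86) and Notch4 (1.80). Blood genes were Plek (4.74), Ermap (-4.19), Laptm5 (3.91), Itgb3 (3.52), Nfe2 (2.52) and Car2 (-1.52). Further genes of mesoderm, heart, mesenchyme and Hox clusters were Cdh11 (-5.50), Lhx1 (-5.46), Isl1 (-3.64), Cdh2 (-3.56), Hand2 (-3.55), Hoxb1 (-3.48), Pmp22 (-3.19) and Hoxb2 (-1.93), each of these lower. Genes of Wnt, FGF and BMP signalling were Wnt5a (-5.05), Sp5 (-5.04), Wnt2 (-3.94), Bmp2 (-3.66), Msx2 (-3.62) and Msx1 (-3.42), each of these lower, while Fgfr2, Sfrp2, Spry1, Tgfbr2 and Id2 of the same lists were called higher. Genes of pluripotency and of the other germ layers were Nr0b1 (5.18), Pou3f1 (4.78), Sox2 (4.69), Crabp2 (4.52), Sox1 (4.18), Cubn (3.93), Gata4 (-3.44), Tubb3 (3.17) and Gata6 (-3.12), of which only Gata4 and Gata6 were lower. Genes of metabolism, the cell cycle and early response were Gadd45a (3.05), Egr2 (-2.55), Pdk1 (2.34), Ccnd2 (-1.996), Myc (-1.89), Ndrg1 (-1.69), Ccne1 (1.61), Egln3 (-1.60) and Rrm1 (-0.75), and genes of matrix, growth factor and imprinting lists were Igfbp5 (3.67), Igf1 (3.46), Nid1 (2.53), Peg3 (-2.38), Bgn (2.35), Col5a2 (2.15), Ccn2 (1.70), Lamc1 (1.39) and Lama5 (0.96). Outliers within a population could not be looked for, since each held 2 arrays.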

How the results depend on the processing

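As reported, 2389 probe sets were called, 1398 higher and 991 lower, with 3474 called in the positive sort, 3215 in the negative sort, 9023 between sorts at day 3.5 and 11217 at day 2.5. The total stayed within 1.5 times under quantile normalization (2235), offsets of 1 and 32 (2339 and 2550), a floor of 16 (2447), a filter on dim probe sets (2848), the fit of only 8 arrays (3221) and a bound of the interval beyond a ratio of 2 (1964). The totals do not show which probe sets were kept. Under quantile normalization 2096 of the calls were among the 2389 reported, under the floor 2006 and under the bound 1346. The bound carries no adjustment for the number of probe sets. Shifting arrays to a common median gave 851 higher and 952 lower. With a robust prior without trend, 1219 were called, 746 higher and 473 lower, with 1720 in the positive and 1457 in the negative sort. Array weights by sort gave 1481 in the positive and 6604 in the negative sort, and 2077 and 9595 in the fit of 8 arrays, an alternative chosen after seeing the data, while the contrast had 2315 and 3308 calls. A filter modelled on the study's, in place of the test, gave 910 probe sets, 553 higher and 357 lower. Of these, 230 and 153 were also called here and 0 the opposite way. This filter used limma intervals on the MAS5 values, whereas the study used dChip values and a lower confidence bound of the fold change. The 910 are therefore not the study's own list. With the replicate block, 2471 were called in the fit of 16 arrays and 3260 in the fit of 8, and since the numbers do not pair the arrays the block has no meaning beyond the number.

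Leaving out 1 array gave 1255 to 2139 calls, 735 to 1344 higher and 520 to 1026 lower, with 1613 to 2813 in the positive and 1299 to 3368 in the negative sort, 4675 to 9423 at day 3.5 and 6451 to 11596 at day 2.5. The remaining array of its group is then assumed to vary like the others. The total moved by over 1.5 times without any 1 negative array: 1255 and 1282 without NHB replicate 1 or 2, and 1529 and 1308 without NAB replicate 1 or 2. The positive sort was lowest without AB replicate 2 (1613) and HB replicate 1 (2160), and the difference at day 3.5 without NAB replicate 1 (4675). The endothelial list had 16 to 25 higher calls over the alternatives to the test, the pluripotency list 15 to 24 and the streak list 22 to 25 lower calls. Under the filter modelled on the study's they had 6, 10 and 12. Single named genes were not scored under that filter. Of the named genes, 114 results were no longer called and 3 newly called against 1664 unchanged ones, and 0 reversed. The cause of these differences was not tested. Dim signals limit the size of a fold, which then depends on the offset.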
